A study of Mus musculus with 12 samples.

Results

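The genes described here are 8 that mark excitatory and forebrain neurons: Slc17a6 and Slc17a7, which encode the vesicular glutamate transporters VGLUT2 and VGLUT1, and the transcription factor genes Tbr1, Neurod1, Neurod2, Neurod6, Emx1 and Bcl11b. They were chosen by name and found by gene symbol, and they are 8 of the 33560 genes with counts. All 8 were matched to an Ensembl identifier, and all 8 passed the filter on low counts, which left 15443 genes for testing.

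RNA was sequenced from mouse neurons differentiated in culture from embryonic stem cells and collected at day 21 in vitro (DIV21). The 12 libraries came from 3 wild-type lines (Daam1-MIC_WT, WT) and 3 knockout lines (Daam1-MIC_KO, KO), where the series title gives the knockout as that of a microexon of Daam1, a formin gene. Each line gave 1 library after 2 h in water, the vehicle, and 1 after 2 h in Y-27632 at 10 µM, an inhibitor of the kinase ROCK, so that each of the 4 groups held 3 libraries. The labels do not say whether a line is a clone or a separate culture. In the test over 12 libraries, p-values measure the spread between the libraries of a group, each from another line. That test treats the 2 libraries of a line as independent. Only the test on the summed libraries of each line has the line as its unit for the genotype. The series text speaks of adult hippocampus, the sample labels speak of cultured neurons, and the sample labels were followed.

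A vesicular glutamate transporter loads glutamate into synaptic vesicles, and a neuron that releases glutamate usually carries at least one. VGLUT1 is known as the main form in cortex and hippocampus, and VGLUT2 as the main form in thalamus, brainstem and spinal cord, with both present in many neurons early in life. Emx1 marks the dorsal telencephalon, Tbr1 early-born cortical neurons, and Bcl11b, also called Ctip2, deep-layer cortical neurons as well as striatal and other neurons. The NeuroD proteins bind E-box DNA motifs and act in the differentiation of neurons, and Neurod2 and Neurod6 are characteristic of cortical and hippocampal excitatory neurons.

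The 2 transporter genes lie on the same strand of chromosome 7, and the stretches of 250 bases before their transcription starts (RefSeq, GRCm38.p6) are shown because these genes do the same job and differed widely in level. Capitals mark E-boxes, the motif CANNTG, which is its own reverse complement. The sequence of Slc17a7 is chr7:45163671-45163920 and that of Slc17a6, from the first of its 2 listed starts, is chr7:51621580-51621829, both on the plus strand. For Slc17a7 the bases just after the start were found in a transcript of the gene in the GENCODE M21 annotation. For Slc17a6 they were not, at either listed start, so its 2 starts rest on RefSeq alone.
Slc17a7: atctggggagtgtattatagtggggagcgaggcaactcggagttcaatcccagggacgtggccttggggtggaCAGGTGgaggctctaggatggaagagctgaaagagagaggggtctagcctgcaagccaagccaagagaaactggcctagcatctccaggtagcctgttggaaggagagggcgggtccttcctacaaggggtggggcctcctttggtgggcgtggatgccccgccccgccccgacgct
Slc17a6: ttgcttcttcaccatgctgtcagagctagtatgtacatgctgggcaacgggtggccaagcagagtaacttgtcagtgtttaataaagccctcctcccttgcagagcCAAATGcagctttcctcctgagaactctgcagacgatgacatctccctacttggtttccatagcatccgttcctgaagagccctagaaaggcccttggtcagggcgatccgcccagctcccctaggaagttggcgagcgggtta

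Each of these 2 stretches held 1 E-box, and CANNTG was found in 66.2% of the 32851 promoters of that length in the table. Neither held CATCTG on either strand, a form that 14.4% of promoters held. The stretch before the second listed start of Slc17a6, chr7:51624387-51624636, held 2 E-boxes, of which 1 was CATCTG read from the other strand. The GC content was 61.2% for Slc17a7 and 53.2% for Slc17a6, with a median of 52.4% over all promoters. Among the other members the count of CANNTG was 3 for Neurod2, 2 for Neurod6, 1 each for Tbr1, Neurod1 and Emx1, and 0 for Bcl11b. These matches describe letters only, and no binding was measured in these libraries.

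By the GENCODE M21 annotation of GRCm38, Slc17a6 (ENSMUSG00000030500) spans chr7:51622006-51671119 and Slc17a7 (ENSMUSG00000070570) chr7:45163949-45176142. Tbr1 (ENSMUSG00000035033) is at chr2:61802930-61814114 and Neurod1 (ENSMUSG00000034701) at chr2:79452521-79456751, on the minus strand. Neurod2 (ENSMUSG00000038255) is at chr11:98325415-98329648 and Neurod6 (ENSMUSG00000037984) at chr6:55677822-55681263, both on the minus strand. Emx1 (ENSMUSG00000033726) is at chr6:85187438-85204462, and Bcl11b (ENSMUSG00000048251) at chr12:107910403-108003602 on the minus strand. Neurod1 lies within Cerkl on the same strand and overlaps Gm26755 on the other strand. Those neighbours had mean levels of 0.0579 and 0.0174 CPM, counts scaled for library size, far below the level of Neurod1, and whether counting used the strand is not given in the sources used here.

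Library totals ran from 23253566 to 35012561 counts. Of the libraries, that of KO line 3 in inhibitor stood apart: its median correlation with the others was 0.854, against 0.953 to 0.986 for the other 11. The summed CPM of 10 pan-neuronal genes (Tubb3, Map2, Rbfox3 and others) was 2184 in it and 6575 to 9127 in the others, the summed astrocyte markers were 1313 against 466 to 724, and the summed progenitor markers 978 against 42.0 to 450. Differences of single genes that rest on this library are therefore given with and without it.

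Within the 8 genes, one transporter was abundant and the other was read from few counts. Levels of different genes were compared as cRPKM, the authors' corrected form of RPKM, which scales reads by gene length and library size. Slc17a6 had a mean of 73.3 ± 23.9 cRPKM (SD, n = 12), with a lowest value of 13.42, a median of 73.2 and a highest of 102. Without KO line 3 in inhibitor the mean was 78.7 ± 15.4 cRPKM (SD, n = 11). Its level exceeded that of 97.4% of all genes in the median library. Slc17a7 had a mean of 0.413 ± 0.139 cRPKM (SD, n = 12), with a lowest value of 0.21, a median of 0.41 and a highest of 0.70, and it exceeded 58.0% of all genes in the median library. The mean of Slc17a6 was 178 times that of Slc17a7, and the ranges of the 2 genes did not overlap in any group. Depth sets the precision for Slc17a7, since it was read from 16 to 52 counts a library against 1626 to 14650 for Slc17a6.

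Of the 6 transcription factor genes, Bcl11b alone had a mean above 1 cRPKM, at 3.71 ± 0.931 (SD, n = 12; range 1.68 to 4.84). The other 5 lay between 0.0942 and 0.446 on average. Neurod6 had 0.446 ± 0.152, Emx1 0.42 ± 0.197, Tbr1 0.33 ± 0.101, Neurod1 0.298 ± 0.0726 and Neurod2 0.0942 ± 0.0392 cRPKM (SD, n = 12). Neurod2 was read from 5 to 17 counts a library, and Emx1 from 4 to 34.

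The order of the levels was fixed at its ends and not in its middle. Slc17a6 was above Bcl11b in 12 of 12 libraries, by a factor of 19.8 between the means, and Bcl11b was above Neurod6 in 12 of 12, by a factor of 8.31. Neurod2 was the lowest, below Neurod1 in 12 of 12 libraries. Between these ends the neighbours changed places: Neurod6 was above Emx1 in 7 of 12, Emx1 above Slc17a7 in 6 of 12, Slc17a7 above Tbr1 in 9 of 12, and Tbr1 above Neurod1 in 7 of 12. In these 4 pairs of neighbours the means differed by less than the SD over libraries of either gene.

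**Figure D1:**
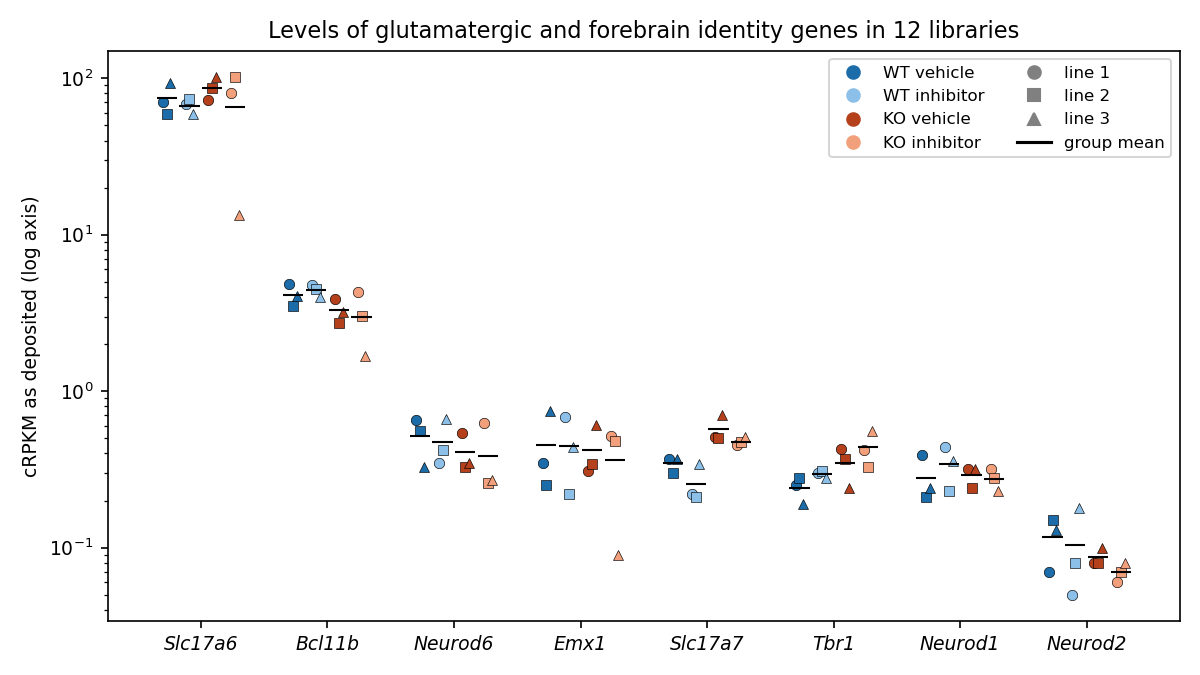
Level of each of the 8 genes in each library, as deposited cRPKM on a log axis, with genes in order of their mean, colours for the 4 groups, symbols for the line number and a bar at each group mean. Slc17a6 lies far above the rest, Bcl11b second, and 5 genes share a band below 1 cRPKM above Neurod2.

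The genes that handle glutamate and other regional genes place these levels in context. Of 9 genes for glutamate synthesis, transport and uptake, 8 had a mean of at least 1 cRPKM. The highest were Got2 at 140 and Got1 at 115 cRPKM, which encode the mitochondrial and cytosolic aspartate aminotransferases, and Slc38a1, a glutamine carrier gene, at 49.2. The exception was Slc17a8, which encodes the third vesicular transporter VGLUT3, at 0.880. Of 23 other regulators of the dorsal telencephalon and cortex, 11 reached 1 cRPKM, led by Bcl11a at 47.0, Tle4 at 21.9 and Cux2 at 8.37. Neurog1, a proneural factor gene of that list, held 3 counts or fewer in every library.

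Of 7 genes linked to the hippocampus, 3 reached 1 cRPKM, namely Fibcd1 at 14.3, Lmo3 at 10.1 and Wfs1 at 6.76. The genes of DNA-binding factors in that list lay below it, with Prox1 the highest of them at 0.86. Of 21 regulators of midbrain, hindbrain and spinal cord, 10 reached 1 cRPKM. They were led by the posterior patterning genes Hoxb8 at 91.2 and Hoxb5 at 65.6 and by Pou4f1, a sensory and brainstem neuron factor, at 12.6. Of the 8 identity genes, 2 reached that level, and of all 33560 genes, 38.0%. All 10 pan-neuronal genes, which neurons of every transmitter share, were above 1 cRPKM. For the labelled type, glutamatergic neuron, Slc17a6 stood at 73.3 cRPKM, and the GABAergic genes Gad1, Gad2 and Slc32a1 stood at 57.6, 31.0 and 55.0 cRPKM in the same libraries. Of the 6 forebrain factors among the 8 genes, Bcl11b was the one above 1 cRPKM.

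**Figure D2:**
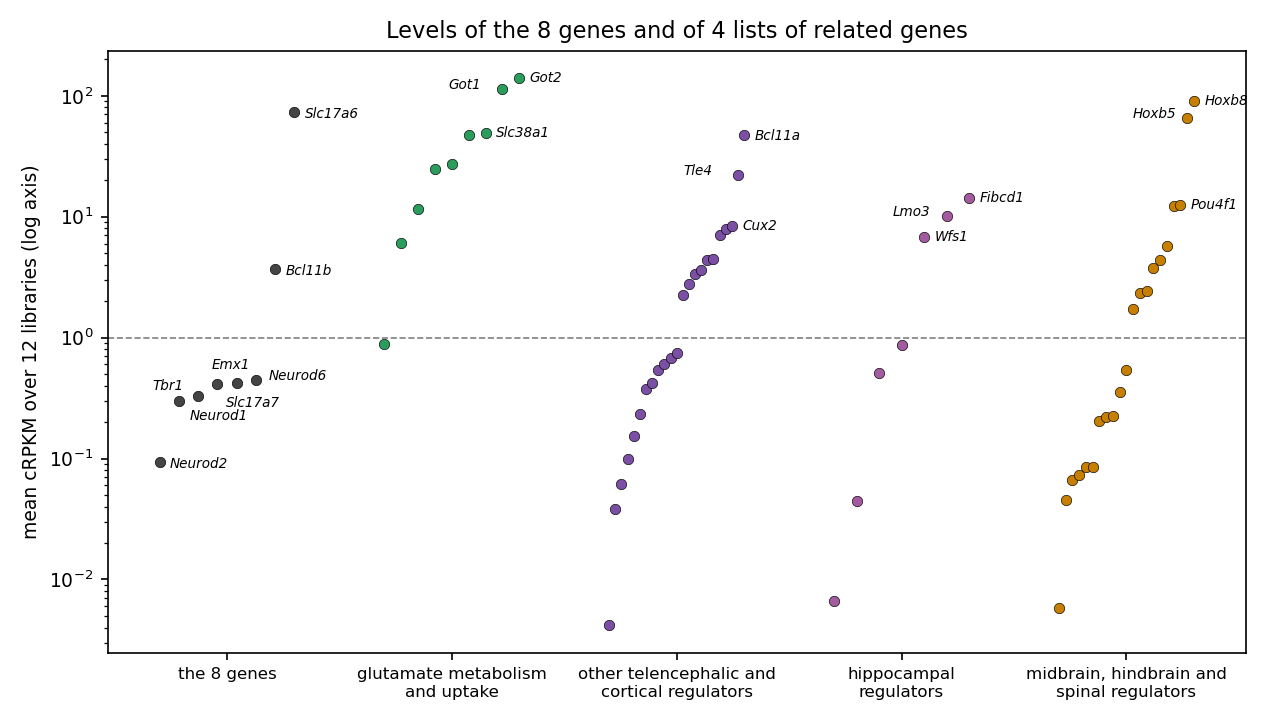
Mean cRPKM over 12 libraries, on a log axis, of the 8 genes and of 4 lists of related genes, 1 point a gene, with the 3 highest of each list named and a dashed line at 1 cRPKM. Glutamate metabolism genes lie mostly above the line, and 6 of the 8 identity genes below it.

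None of the 8 genes passed the test in any of the 6 comparisons made (edgeR quasi-likelihood test, adjusted p below 0.05). The comparisons were KO against WT in each treatment, inhibitor against vehicle in each genotype, their interaction, and KO against WT with the 2 libraries of each line summed. The background was the same, with 0% of all genes called in each comparison. At an unadjusted p below 0.05, 1 of the 8 was found in vehicle, where 1.99% of all genes were, 1 in inhibitor (3.5%) and 2 over the line sums (2.65%). The count was 0 of 8 for the treatment in WT (0.304%), the treatment in KO (7.05%) and the interaction (1.2%). Without KO line 3 (its inhibitor library, or the line for the sums) the shares of all genes were 8.57% in vehicle, 9.5% in inhibitor, 13.1% over the line sums, 1.36% and 1.15% for the treatment in WT and KO and 2.03% for the interaction. Of the members, 1, 1, 2, 0, 0 and 0 were then found in that order, Slc17a7 in the first 3 and Slc17a6 in place of Tbr1 over the line sums. DESeq2 called none of the 8, and 0.0712% of all genes in vehicle, 0.117% in inhibitor, 0.541% over the line sums and 0% in the other 3 comparisons. The median log2 fold change of the 8 for KO against WT was 0.02 in vehicle, against -0.01 over all genes tested, and -0.32 in inhibitor, against 0.00. In inhibitor it was 0.02 without KO line 3, against -0.05 over all genes.

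Slc17a7 was higher in KO than in WT libraries in both treatments, although the difference did not pass. In vehicle, WT lines 1 to 3 had 1.03, 0.895 and 1.04 CPM and KO lines 1.50, 1.43 and 2.04 CPM. In inhibitor, WT lines had 0.624, 0.599 and 0.991 CPM and KO lines 1.28, 1.36 and 1.37 CPM. The groups did not overlap in either treatment, and all 6 KO libraries (1.28 to 2.04 CPM) lay above all 6 WT libraries (0.599 to 1.04 CPM).

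The log2 fold change of Slc17a7 in KO against WT was 0.74 ± 0.26 (SE) in vehicle, with an unadjusted p of 0.0185 and an adjusted p of 0.999 (edgeR). In inhibitor it was 0.85 ± 0.26, with an unadjusted p of 0.00927 and an adjusted p of 0.856, and 0.83 ± 0.29 without KO line 3 in inhibitor. Over the line sums, WT lines had 0.835, 0.729 and 1.02 CPM and KO lines 1.37, 1.37 and 1.71 CPM. That difference was 0.80 ± 0.22 on the log2 scale, with an unadjusted p of 0.0115 and an adjusted p of 0.998, and 0.70 ± 0.23 without KO line 3. Complete separation of the KO above the WT group was seen in 7.62% of all genes in vehicle and 3.51% in inhibitor, and of all 6 KO above all 6 WT libraries in 44 genes, 0.285% of those tested. These libraries share their lines between the treatments, so the 2 contrasts are not separate experiments.

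Sums of markers of other cells also differed between the genotypes for some cell types, although no single marker gene passed the test (edgeR). The summed mesenchymal markers (Col1a1, Col3a1, Dcn and others) were 104 to 1209 CPM in WT and 26.2 to 107 CPM in KO vehicle libraries, which overlapped. Of those genes 8 of 8 were lower in KO at an unadjusted p below 0.05, where 1.99% of all genes were found. Their smallest adjusted p was 0.999 in vehicle (edgeR). Over the line sums 6 of 8 were lower in KO at an unadjusted p below 0.05, where 2.65% of all genes were found. There their median log2 difference was -2.79 and their smallest adjusted p 0.101 (edgeR). In inhibitor the mesenchymal sums were 282 to 783 CPM in WT and 61.0 to 119 CPM in KO, without overlap. The summed pan-neuronal genes were 6575 to 8232 CPM in WT and 8383 to 9127 CPM in KO vehicle libraries, without overlap. In inhibitor they were 6834 to 8223 CPM in WT and 2184 to 8730 CPM in KO, where KO line 3 was the lowest. The summed GABAergic markers were 620 to 684 CPM in WT and 734 to 808 CPM in KO vehicle libraries, also without overlap. In inhibitor the GABAergic sums were 598 to 755 CPM in WT and 300 to 802 CPM in KO. The much smaller pluripotent and oligodendrocyte sums were also higher in every KO than in every WT vehicle library. The astrocyte, progenitor and microglia sums overlapped in vehicle. In bulk RNA, fewer cells of a type and less RNA per cell cannot be told apart, and the part of these shifts in the difference of Slc17a7 was not tested.

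Slc17a6 did not separate the genotypes. In vehicle it had 280, 249 and 376 CPM in WT lines 1 to 3 and 305, 355 and 422 CPM in KO lines. In inhibitor it had 278, 305 and 242 CPM in WT lines and 325, 423 and 51.7 CPM in KO lines. The vehicle groups overlapped, and in inhibitor KO lines 1 and 2 lay above every WT line while KO line 3 lay far below.

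Its log2 fold change in KO against WT was 0.26 ± 0.56 in vehicle (95% interval -0.98 to 1.50; adjusted p = 0.999, edgeR) and -0.04 ± 0.56 in inhibitor (adjusted p = 0.981). Without KO line 3 in inhibitor the latter turned to 0.45 ± 0.20, with an adjusted p of 0.526. That single library widened the error in every contrast, since without it the SE in vehicle was 0.18 in place of 0.56. Over the line sums the difference was 0.13 ± 0.23, and 0.32 ± 0.11 without KO line 3, with adjusted p of 0.998 and 0.357. Slc17a6 per 1000 CPM of the summed pan-neuronal genes ran from 35.4 to 48.5 in the other 11 libraries and was 23.7 in KO line 3 in inhibitor.

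**Figure D3:**
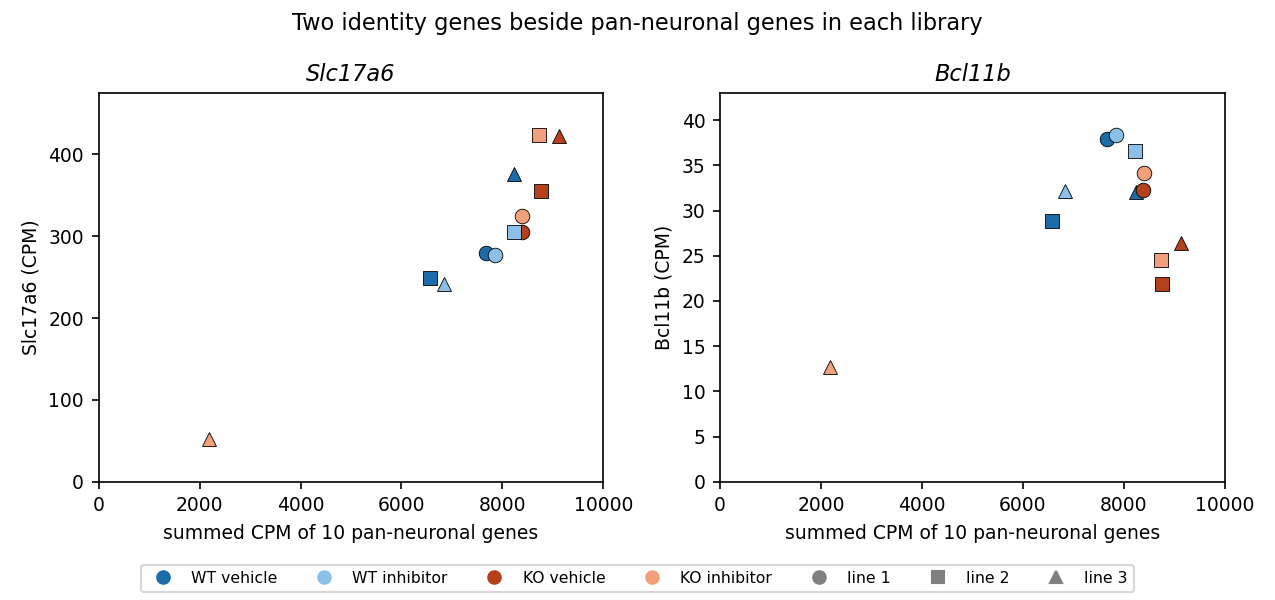
CPM of Slc17a6 (left) and Bcl11b (right) against the summed CPM of 10 pan-neuronal genes, 1 point a library, with colours for the groups and symbols for the lines. KO line 3 in inhibitor stands alone at the lower left of both panels, at a sum of 2184 CPM.

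The ratio of the transporters within a library does not depend on scaling between libraries. In cRPKM it was 189, 197 and 253 in WT vehicle and 142, 173 and 144 in KO vehicle (lines 1 to 3), so every KO value lay below every WT value. The mean log2 ratio was 7.25 ± 0.16 in KO and 7.72 ± 0.23 in WT (SD, n = 3 each), a difference of -0.47 with p = 0.1 by a two-sided exact permutation test, the smallest p that 3 against 3 can give. In inhibitor the ratio was 310, 351 and 173 in WT and 178, 218 and 26.3 in KO, with overlap. The difference was -1.40 (p = 0.3, exact permutation test), and leaving out 1 library at a time gave -1.96 to -0.44, the value nearest 0 being that without KO line 3.

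Among the forebrain factors, Tbr1 leaned the same way as Slc17a7. It had 0.963, 1.13 and 0.718 CPM in WT and 1.72, 1.47 and 0.980 CPM in KO vehicle libraries, which overlapped. In inhibitor it had 1.18, 1.23 and 1.09 CPM in WT and 1.62, 1.30 and 2.07 CPM in KO, which did not. The log2 differences were 0.57 ± 0.30 (adjusted p = 0.999) and 0.51 ± 0.29 (adjusted p = 0.856, edgeR), and the second was 0.32 ± 0.30 without KO line 3. Over the line sums Tbr1 had 1.09, 1.16 and 0.908 CPM in WT and 1.65, 1.36 and 1.62 CPM in KO, a log2 difference of 0.57 ± 0.21 with an unadjusted p of 0.0343 and an adjusted p of 0.998, and 0.54 ± 0.23 without KO line 3. Slc17a7 and Tbr1 were thus the 2 members whose line sums did not overlap with KO higher, a pattern of 3.82% of all genes.

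Bcl11b had lower values in 2 of the 3 KO lines. In vehicle it had 37.9, 28.9 and 32.0 CPM in WT and 32.3, 21.9 and 26.4 CPM in KO. In inhibitor it had 38.3, 36.6 and 32.1 CPM in WT and 34.1, 24.5 and 12.7 CPM in KO. KO line 1 lay within the WT range in both treatments and KO lines 2 and 3 below it. The log2 differences were -0.29 ± 0.30 and -0.58 ± 0.30, with adjusted p of 0.999 and 0.856 (edgeR), and the second was -0.28 ± 0.19 without KO line 3 in inhibitor.

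Emx1 and the NeuroD genes overlapped between the genotypes in each treatment. Emx1 had 0.516, 0.389 and 1.11 CPM in WT and 0.476, 0.519 and 0.941 CPM in KO vehicle libraries, so line 3 was the highest of both genotypes. In inhibitor it had 1.02, 0.337 and 0.661 CPM in WT and 0.781, 0.723 and 0.127 CPM in KO. Its log2 differences were -0.06 ± 0.67 in vehicle and -0.31 ± 0.66 in inhibitor, and the second turned to 0.15 ± 0.55 without KO line 3, where it was read from 4 counts. Neurod1 ran from 0.572 to 1.18 CPM over the 12 libraries, Neurod6 from 0.541 to 1.39 and Neurod2 from 0.164 to 0.562. For these 3 genes the KO against WT differences lay between -0.35 and 0.10 in vehicle and between -0.62 and -0.32 in inhibitor, with SE of 0.33 to 0.46, and between -0.64 and -0.11 in inhibitor without KO line 3. Their 95% intervals reached down to -1.65 for Neurod2 in inhibitor and up to 0.84 for Neurod1 in vehicle.

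**Figure D4:**
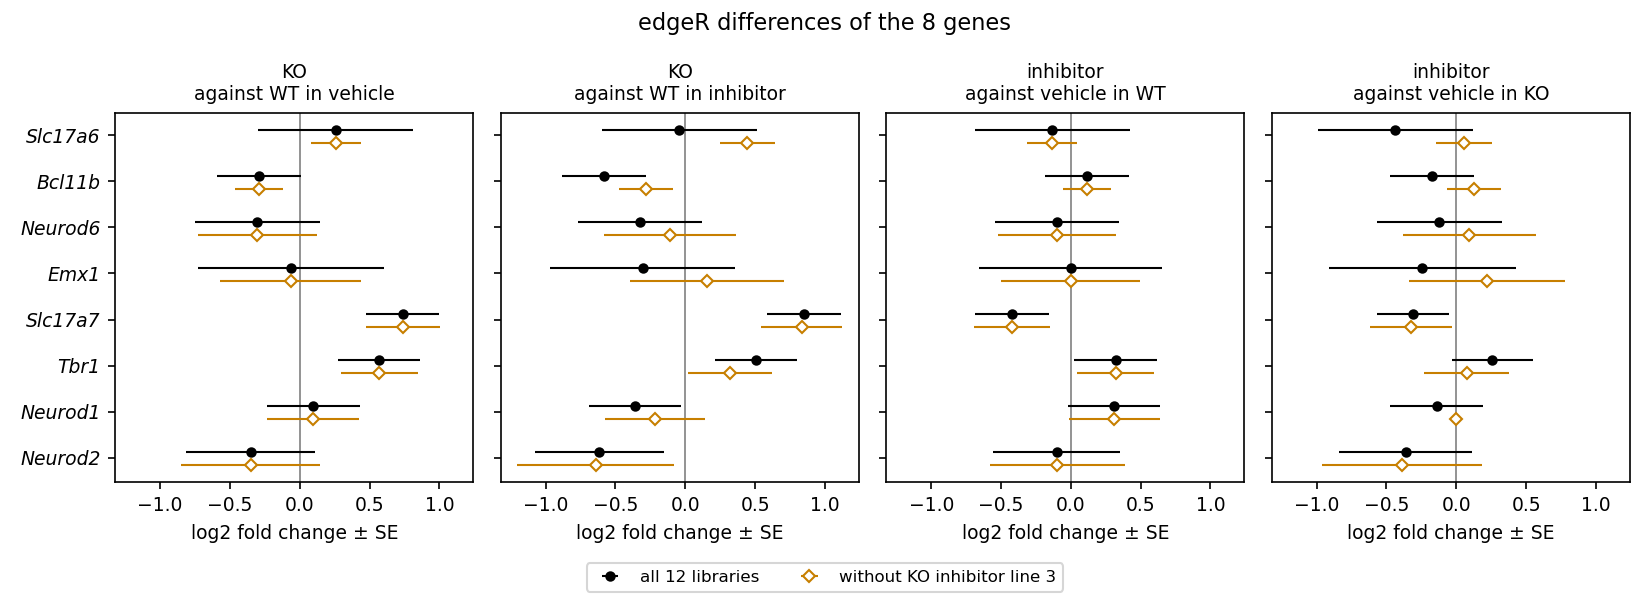
Log2 fold changes with their SE from edgeR for the 8 genes in 4 comparisons, with all 12 libraries (filled circles) and without KO line 3 in inhibitor (open diamonds). Slc17a7 lies to the right of 0 in both genotype panels and to the left in both treatment panels. The SE is left out at Neurod1 in the last panel, where the difference is 0.00.

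The inhibitor, given for 2 h, changed no member at the threshold, in WT or in KO lines. Slc17a7 was lower with the inhibitor than with the vehicle in 6 of 6 lines, a pattern seen in 0.706% of all genes tested (109 genes). The falls in WT line 3 and KO line 2 were slight, with log2 changes of -0.071 and -0.068. The log2 change was -0.42 ± 0.27 in WT (95% interval -1.01 to 0.17) and -0.31 ± 0.26 in KO lines (95% interval -0.89 to 0.27), with adjusted p of 1.00 and 0.536 (edgeR). In KO it was -0.33 ± 0.29 without the inhibitor library of line 3. Its treatment groups overlapped in WT, as did those of all 8 members, where 5.97% of all genes did not overlap in one direction or the other. In KO lines 2 of the 8 members, Slc17a7 and Neurod2, had every inhibitor value below every vehicle value, as did 5.65% of all genes. Neurod2 had 0.256, 0.259 and 0.314 CPM in KO vehicle and 0.187, 0.231 and 0.223 CPM in KO inhibitor libraries, which rest on 6 to 8 counts each.

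Slc17a6 had 422 CPM in vehicle and 51.7 CPM in inhibitor in KO line 3, while KO lines 1 and 2 had 305 and 355 CPM in vehicle and 325 and 423 CPM in inhibitor. The log2 change in KO was -0.44 ± 0.56 (adjusted p = 0.631, edgeR) with that library and 0.05 ± 0.20 without it. In WT it was -0.13 ± 0.56, and 1 of 3 lines had the higher value in inhibitor. The changes of the 6 transcription factor genes in WT ran from -0.10 to 0.32. By CPM, Tbr1, Neurod1 and Bcl11b had the higher value in inhibitor in 3 of 3 WT lines. In KO, 1 of 3, 1 of 3 and 2 of 3 lines did so for these genes. For Bcl11b the rises in WT lines 1 and 3 were slight, with log2 changes of 0.0164 and 0.00428. In cRPKM Bcl11b was lower in inhibitor than in vehicle in both of these lines. The log2 ratio of Slc17a6 to Slc17a7 changed within lines by 0.71, 0.83 and -0.55 in WT and by 0.32, 0.33 and -2.46 in KO, a mean of -0.13 with p = 0.906 by an exact sign-flip permutation test, whose smallest p for 6 lines is 0.0312. Without KO line 3 the mean was 0.33.

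**Figure D5:**
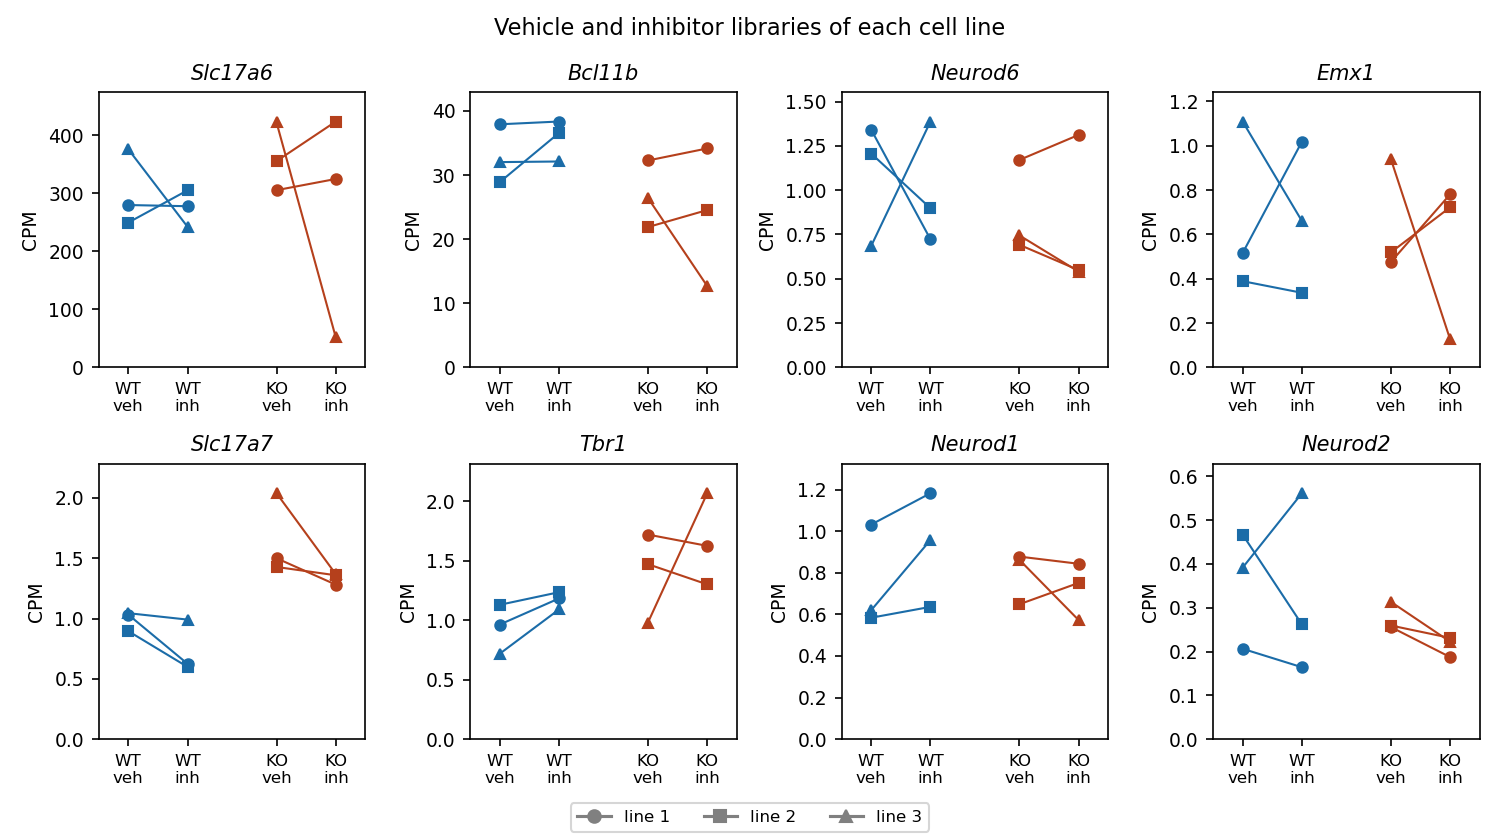
CPM of each gene in the vehicle and inhibitor library of each line (points joined by a line; WT in blue, KO in red, symbols for the line number). All 6 lines of Slc17a7 slope down, and the steep downward segments in the panels of Slc17a6, Bcl11b and Emx1 are those of KO line 3.

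The difference between the genotypes in their response to the inhibitor was tested as an interaction. The log2 estimates ran from -0.45 ± 0.47 for Neurod1 to 0.11 ± 0.37 for Slc17a7 (95% interval -0.71 to 0.93), and the smallest adjusted p was 0.808. For Slc17a6 the estimate was -0.30 ± 0.79, and 0.19 ± 0.27 without KO line 3 in inhibitor. Without that library the estimate was -0.31 ± 0.49 for Neurod1 and 0.10 ± 0.39 for Slc17a7.

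KO line 3 in inhibitor did not shift all members one way. By CPM it had the lowest of 12 values for Slc17a6, Bcl11b, Emx1, Neurod1 and Neurod6, the highest for Tbr1, the fourth highest for Slc17a7 and the ninth for Neurod2. In cRPKM Neurod1 was not the lowest there, at 0.23 against 0.21 in WT line 2 in vehicle. Nor was Neurod6, at 0.27 against 0.26 in KO line 2 in inhibitor. The mean CPM of the other 11 libraries was 6.26 times that of KO line 3 in inhibitor for Slc17a6, 5.34 times for Emx1 and 2.47 times for Bcl11b. For the summed pan-neuronal genes it was 3.70 times. The Slc17a7 value of 1.37 CPM in that library thus stood beside the lowest Slc17a6 value of the series. Astrocyte, progenitor and pan-neuronal markers move with these values, as given above, and their part was not tested.

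The spread among replicates is given as the coefficient of variation (CV) of scaled counts within groups, beside the CV that counting alone would give at that mean. For Slc17a7 it was 17.5%, against 17.1% from counting. For the other low genes it was 24.0% for Tbr1, 26.5% for Neurod1, 37.5% for Neurod6, 41.8% for Neurod2 and 54.2% for Emx1, against 16.4%, 20.8%, 19.2%, 34.4% and 23.4%. The abundant genes Slc17a6 and Bcl11b had 35.5% and 22.1%, against 1.07% and 3.41%, and 18.2% and 17.2% without KO line 3 in inhibitor.

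Of the related lists, none held a gene that passed in any comparison (edgeR). Of all genes tested, 1.99% had an unadjusted p below 0.05 for KO against WT in vehicle, 3.5% in inhibitor and 2.65% over the line sums. The share was 0.304% for the inhibitor in WT, 7.05% for the inhibitor in KO and 1.2% for the interaction. At that p, of the 9 glutamate genes 1 was higher in KO in inhibitor and none in the other 5 comparisons. Of the 21 tested telencephalic regulators, 1 was lower in KO in inhibitor, 1 lower over the line sums and 1 higher with the inhibitor in KO. Of the 5 tested genes linked to the hippocampus, 1 was higher in KO in inhibitor. Of the 15 tested midbrain, hindbrain and spinal regulators, 1 was higher and 2 lower in KO in vehicle, and 4 were lower in inhibitor. Over the line sums, 2 were higher and 5 lower of 17 tested. The median log2 difference of this last list was -0.34 in vehicle and -0.44 in inhibitor (-0.30 without KO line 3), against -0.01 and 0.00 over all genes tested, and -0.03 over the line sums, against 0.04. It was 0.11 in vehicle for the glutamate genes.

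As a description, the non-member genes with the highest Pearson r to each member in log2 CPM were searched among 13420 genes. For Slc17a6 they were Adam23 and Tmtc1, with r of 0.998 and 0.996 over 12 libraries and 0.985 and 0.969 over the 11 without KO line 3 in inhibitor. The count of genes above 0.95 for Slc17a6 was 1742 with that library and 46 without it. Bcl11b was nearest to Cbfa2t3 (0.973 and 0.914 over 12 and 11 libraries) and Marcks (0.971 and 0.918). Slc17a7 was nearest to Clpx (0.905 and 0.915) and Hdac8 (0.883 and 0.901), and Tbr1 to Camk1 (0.954 and 0.938) and Ilf2 (0.952 and 0.935). Emx1 was nearest to Pafah1b1 (0.957 and 0.908) and Dop1a (0.940 and 0.864), and Neurod6 to Ubtf (0.879 and 0.851) and Wipi2 (0.871 and 0.838). For Neurod1, Dock10 had 0.768 and 0.782 and Lemd1 0.757 and 0.704, and for Neurod2, Mfsd13a had 0.791 and 0.787 and Fbxl20 0.779 and 0.772. The order changed with the library left out: over the 11 libraries the highest r of any gene was 0.95 for Slc17a7, 0.824 for Neurod1, 0.900 for Neurod2, 0.934 for Neurod6 and 0.945 for Bcl11b, each with another gene than those named. For Slc17a6, Tbr1 and Emx1 the first gene named was also the nearest over 11. These values share libraries, depth and the one library that stood apart, and no p was computed. Between members, Slc17a6 and Slc17a7 had an r of 0.03 over 12 libraries and 0.61 over 11, and Slc17a6 and Bcl11b 0.68 and -0.56.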

How the data were processed

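The authors deposited, for each of 12 libraries, a table without a header that holds an Ensembl identifier, a cRPKM value and a read count for every gene. The counts as deposited are unnormalized whole numbers. The cRPKM values as deposited by the authors are RPKM with a correction whose form is not given in the sources used here. Libraries were poly(A)-selected and stranded, per the labels' protocols, and the build was mm10, per the submitters' processing notes. The aligner, the annotation and the use of strand in counting are not given in the sources used here. Rows given as NA numbered 3342, which left 33560 genes with counts, 33371 of them matched to a symbol.

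Counts were tested with edgeR 4.0.16 in R 4.3.3 (TMM, filterByExpr by group, robust glmQLFit, quasi-likelihood F test) in 1 fit of 12 libraries with a coefficient per group, 15443 genes. Line sums, 3 KO against 3 WT, were fitted separately, 16090 genes. P-values were adjusted by Benjamini-Hochberg over all genes tested, threshold 0.05. SE is the fold change over the square root of F. CPM carry TMM factors, and log2 CPM used a prior count of 2. The procedure was tested on simulated data, with independent libraries and with changes only in genes of higher mean count than the low members. That test does not cover those members, the lines or the library that stood apart. Alternatives were DESeq2 1.42.0, RLE factors, library totals, no filter, a replicate block, and leaving out each library or line. The block was the cell line for the treatment and the interaction, and the line number for KO against WT. The main fit had no block.

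The vehicle and inhibitor libraries of a line are paired, since the labels give them the same cell line. Over all genes tested, the correlation of their deviations from group means was 0.41, -0.55 and -0.72 for WT and -0.19, 0.57 and -0.37 for KO lines 1 to 3. WT and KO lines share a number only.

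The named genes were the 8 members, per list any gene called and otherwise the 3 highest in mean cRPKM, and per member the 2 genes nearest by Pearson r with at least 1 CPM. Slc17a8, Neurog1, marker genes and neighbours of Neurod1 were named outside that rule. The members and lists were chosen with earlier results of these data known. Some single genes of the lists are not reported here.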

Additional observations from a re-analysis of the deposited data

How the results depend on the processing

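None of the alternatives called a member: over 768 results of single members under an alternative, the smallest adjusted p was 0.277. Of all genes, DESeq2 called 11 in KO against WT in vehicle, 18 in inhibitor and 87 over the line sums, and edgeR without a filter called 2 of 24110 over the line sums. DESeq2 gave 1 adjusted p as NA, that of Neurod2 for KO against WT in inhibitor. The sign was kept in 714 of the 768 results, and the cause of the other sign in 54 was not tested. With the replicate block no call changed: the block left 0 of 8 members called in each comparison. For the treatment and the interaction the block was the cell line. For KO against WT it was the line number, which WT and KO lines share in name only. It gave log2 differences of 0.72 in vehicle and 0.88 in inhibitor for Slc17a7 in KO against WT, and these are not paired estimates. The block by cell line turned Emx1 for the inhibitor in WT to 0.00788. Without a filter on low counts, Slc17a6 in KO against WT in inhibitor was 0.000347, and the interaction of Neurod6 was 0.0202. That interaction was also 0.0103 with RLE factors, 0.0422 with library totals and 0.00546 with DESeq2, and with library totals the interaction of Tbr1 was 0.00698. With 1 library or line left out at a time, the log2 difference changed sign for these results. For KO against WT in vehicle the range was -0.0507 to 0.40 for Neurod1 and -0.44 to 0.51 for Emx1. In inhibitor it was -0.55 to 0.45 for Slc17a6, -0.94 to 0.0107 for Neurod2 and -0.65 to 0.15 for Emx1. For the inhibitor in WT it was -0.28 to 0.0556 for Slc17a6, -0.73 to 0.22 for Neurod2, -0.41 to 0.0877 for Neurod6 and -0.43 to 0.57 for Emx1. For the inhibitor in KO it was -0.94 to 0.0529 for Slc17a6, -0.27 to 2.6e-05 for Neurod1, -0.68 to 0.15 for Neurod6, -0.59 to 0.22 for Emx1 and -0.53 to 0.13 for Bcl11b. For the interaction it was -0.81 to 0.19 for Slc17a6, -0.0159 to 0.38 for Slc17a7, -0.26 to 0.12 for Tbr1, -0.59 to 0.36 for Neurod2, -0.57 to 0.29 for Neurod6, -0.81 to 0.22 for Emx1 and -0.65 to 0.013 for Bcl11b. Over the line sums it was -0.0951 to 0.32 for Slc17a6, -0.30 to 0.14 for Neurod1 and -0.47 to 0.0754 for Emx1. The change of the log2 transporter ratio within lines ranged from -0.33 to 0.33, the latter without KO line 3. Depth limits the 6 members other than Slc17a6 and Bcl11b, which were read from 4 to 65 counts a library.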

Other observations

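In the library of KO line 3 in inhibitor, Slc17a6, Emx1 and Bcl11b had their lowest values in cRPKM. Several other regional regulators had values there outside the range of the other 11 libraries. These regulators were chosen after their values were seen, and no cause was tested. Lhx2, a telencephalic and progenitor factor, had 1.50 cRPKM in it against 0.03 to 0.24. Otx2, a forebrain and midbrain factor, had 2.13 against 0.0 to 0.13, and Prox1, a factor of the dentate gyrus, 2.62 against 0.56 to 0.96. Tcf7l2, a Wnt effector abundant in thalamus, had 25.7 cRPKM against 0.24 to 5.3. The posterior gene Hoxb8 had 42.0 against 63.9 to 117, and Bcl11a, a cortical neuron factor, 18.4 against 46.5 to 56.4. Genes of one list went both ways in this library. Of the list that holds Prox1, Fibcd1 had 2.08 against 9.99 to 22.6 and Lmo3 3.42 against 6.01 to 16.9, while Wfs1 had 10.4 against 5.07 to 9.0. Of the list that holds Otx2 and Tcf7l2, Pou4f1 had 2.72 against 8.66 to 18.0. Other genes of these lists lay above, within or below the range.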
